A study of Mus musculus with 17 samples.

Results

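The comparison described here set 3 arrays hybridized with aRNA made from 1 pg of mouse cortex mRNA against 3 arrays made from 10 pg, both after 4 rounds of amplification, and so asked what a smaller input does to the measured transcriptome when the rounds are equal. These are 6 of the 17 arrays of the series, chosen by the input and the number of rounds in their labels (codes 4B1 to 4B3 for 1 pg and 4A1 to 4A3 for 10 pg). All the mRNA was cortical, from adult female C57BL/6 mouse brain with no treatment. Within a group each array holds its own amplification of this mRNA, so the p-values below cover variation between amplifications and none between animals. Unless the 6 arrays alone are named, the p-values of probe sets and genes, with their SEs, rest on a pooled spread. It was pooled over all groups with more than 1 array, so it includes other inputs and rounds. The unamplified mRNA (5 µg, 1 array, called bulk) serves as a reference level, and the remaining arrays are those of 0.1 pg after 4 rounds (3), 10 pg after 2 rounds (1), and 1 and 0.1 pg after 2 rounds (3 each).

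In aRNA amplification, mRNA is copied into cDNA from its poly(A) tail with a primer that carries the promoter of a phage RNA polymerase, and the polymerase then transcribes the cDNA into antisense RNA. The yield is linear within a round, and the product of one round is the template of the next. The method is known in neuroscience as the way to bring the mRNA of a single neuron or dendrite to the amount that an array needs, and a transcript that is not copied in the first round is lost to all later ones.

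Levels are given as log2 values relative to the median of each array, after the values of each array had been scaled to the same range between the 10th and 90th percentiles, so a level of 0 is the median probe set of that array. The level of a probe set also depends on its probes, so levels were compared between arrays and not between genes. Where a gene had several probe sets, the one that averaged highest across the 17 arrays stood for it. A gene is called changed where the adjusted p from limma (Benjamini-Hochberg over all probe sets) is under 0.05.

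The 6 arrays were alike in their deposited medians (5.75 to 5.86) and ranges (4.63 to 4.84). Replicate 3 of 1 pg had 1691 distinct values, fewer than the other 5 arrays, which had 2360 to 3482, so more of its probe sets share a level. The arrays of 10 pg correlated with each other at 0.879 to 0.885 (Pearson's r over 45037 probe sets), and those of 1 pg at 0.771 to 0.857. Replicate 2 of 1 pg correlated more closely with replicate 3 of 10 pg (0.865) than with either other array of its own group (0.857 and 0.771). Results are therefore also given without each of the arrays. As a description of the labelled tissue, median levels in bulk are given for the marker lists, with the limit that these are levels of different probe sets. They were 3.16 for 16 astrocyte, 2.60 for 16 excitatory neuron, 2.34 for 22 pan-neuronal and 1.76 for 17 inhibitory neuron markers. Oligodendrocyte markers stood at 0.85, microglia markers at 0.74 and vascular markers at 0.59. Markers of choroid plexus and ependyma stood at -0.44 and the 8 blood markers at -0.48. The median of all 18193 genes was 0.42.

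The correlation with bulk was lower at 1 pg than at 10 pg. The 3 arrays of 1 pg correlated with bulk at 0.782, 0.765 and 0.753, with a mean of 0.766 ± 0.0145 (SD, n = 3). Those of 10 pg correlated at 0.825, 0.821 and 0.809, with a mean of 0.819 ± 0.00832 (SD, n = 3). The groups did not overlap, and the difference of -0.0522 had an exact two-sided permutation p of 0.1, which is the smallest that 3 against 3 arrays can give. The spread between arrays was also larger at 1 pg: the median SD over the 3 arrays was 0.528 at 1 pg and 0.404 at 10 pg, and 11440 of the 18193 genes (62.9%) had the larger SD at 1 pg.

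Most of the genes that changed were lower at the smaller input, and they were a small share of all genes. Of 45037 probe sets, 296 (0.657%) changed, 265 of them lower at 1 pg (0.588%) and 31 higher (0.0688%). Of 18193 genes, 119 (0.654%) changed, 105 of them lower at 1 pg (0.577%) and 14 higher (0.077%). The median difference over all genes, 1 pg minus 10 pg, was 0.07 on the log2 scale. Among the changed genes the median fall was -3.24 and the median rise 2.83. The arrays of the 2 groups did not overlap for any of the 119 genes, and in all 3147 genes (17.3%) had arrays that did not overlap. At an unadjusted p under 0.05, 1005 genes were lower (5.52%) and 791 higher (4.35%). A fit of the 6 arrays alone called 17 genes and the methods' t-test called 0 after adjustment, with 4310 probe sets under an unadjusted p of 0.05 against 4284 with limma. Array weights gave 724 genes, and 1745 probe sets of which 716 were higher and 1029 lower. Without replicate 2 of 1 pg, 147 probe sets were higher and 205 lower. Leaving out replicate 1 of 10 pg left 33 genes called, leaving out replicate 1 of 1 pg left 63, and 29 of the 119 genes were called in each of the 6 fits that leave out 1 array.

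**Figure D1:**
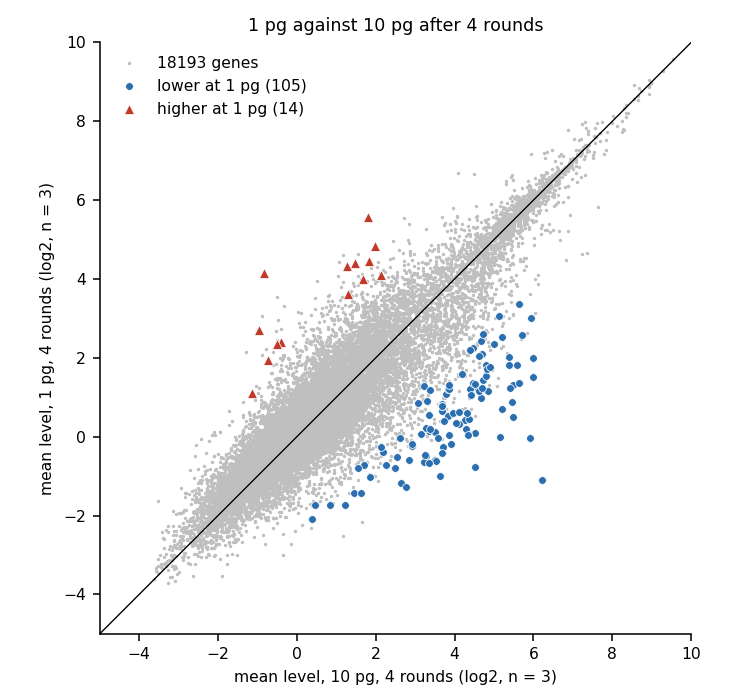
Mean log2 level of each of the 18193 genes at 10 pg (x axis) and at 1 pg (y axis) after 4 rounds, over 3 arrays each, relative to the array median, with the line of equal levels. The 105 genes that were lower at 1 pg (circles) lie below the line and the 14 that were higher (triangles) above it, while genes at the upper end of both axes stay close to it.

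The changed genes came mostly from the upper part of the range in bulk. The genes were sorted into 10 deciles by their level in bulk, and the lowest decile held 0 genes that fell and 1 that rose. The count of genes that fell was 19, 25 and 28 in the deciles 7, 8 and 9 of bulk (1.04%, 1.37% and 1.54% of their genes), and 15 in the highest decile (0.824%). The median SD between the arrays of 1 pg was 0.511 in the lowest decile, 0.737 in decile 9 and 0.382 in the highest, and the values at 10 pg were 0.414, 0.54 and 0.245. The share of genes with the larger SD at 1 pg was highest, at 69%, in the highest decile. Its median level was 5.08 at 10 pg and 5.05 at 1 pg.

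**Figure D2:**
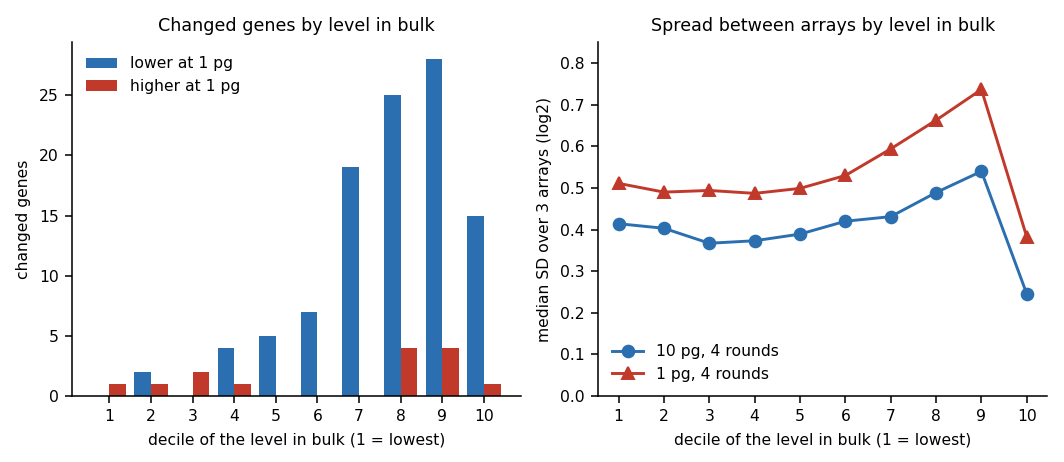
Left, the number of genes called lower (blue) and higher (red) at 1 pg than at 10 pg after 4 rounds, by decile of the gene's level in bulk. Right, the median over genes of the SD between the 3 arrays of each group, on the log2 scale, which is larger at 1 pg in each decile and reaches 0.737 at 1 pg in decile 9.

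The levels of the changed genes were also set beside bulk, as a description only, since the genes were selected on the difference between 10 and 1 pg. The genes that fell had a median level of 3.96 at 10 pg, 1.87 in bulk and 0.54 at 1 pg. Of these 105 genes, 67 stood more than 1 log2 unit above bulk at 10 pg, 38 within 1 unit and 0 more than 1 unit below. At 1 pg, 66 of them stood more than 1 unit below bulk, 35 within 1 unit and 4 above. Their 1 pg mean was the nearer to bulk for 54 genes, and the 10 pg mean for the rest. The genes that rose had a median level of 1.29 at 10 pg, 1.81 in bulk and 4.05 at 1 pg. For 11 of these 14 genes the 10 pg mean was within 1 unit of bulk, and for 12 the 1 pg mean was more than 1 unit above it.

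The genes that fell are given by what each is known to do, an order set after the calls were seen. Tuba4a, an alpha-tubulin of the microtubules, read 5.73, 5.14 and 2.67 at 10 pg and -0.03, -1.81 and -0.47 at 1 pg. It fell by 5.28 ± 0.681 (SE; limma adjusted p = 0.00222), bulk stood at 4.84, and the call was kept without each array. Nefl, the light chain of the neurofilaments, read 5.45, 6.22 and 5.25 at 10 pg and 2.38, 0.46 and 1.20 at 1 pg, with bulk at 4.39. Its fall was -4.29 ± 0.814 (SE; limma adjusted p = 0.0205), and 2 of the 6 fits without 1 array kept the call. Its other probe set differed by 2.21 and did not pass the test (limma adjusted p = 0.149). Cdh2, which encodes N-cadherin of the synaptic and neuroepithelial junctions, read 4.20, 1.92 and 4.79 at 10 pg and -0.69, -1.43 and -0.85 at 1 pg, a difference of -4.62. Replicate 2 of 10 pg lay below bulk (2.65) and the other two above it, and of the 6 fits the one without that array kept the call. A hair keratin and a mucosal keratin, proteins of epithelia, fell as well, although keratins are not known as products of cortex. Krt31 read 4.20, 3.89 and 4.97 at 10 pg and -0.52, 0.36 and 0.41 at 1 pg, where bulk stood at 0.93. Krt4 read 3.50, 3.46 and 4.07 at 10 pg and 0.04, 0.94 and 0.99 at 1 pg, where bulk stood at 0.77. For both keratins bulk lay near the arrays of 1 pg, and those of 10 pg were higher.

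Rab11a, a small GTPase of recycling endosomes, read 4.09, 4.83 and 4.13 at 10 pg and -0.03, 1.66 and -1.52 at 1 pg. It fell by 4.31 ± 0.746 (SE; limma adjusted p = 0.0117), bulk stood at 3.16, and 5 of the 6 fits kept the call. Its other probe set differed by 2.72 and did not pass the test (limma adjusted p = 0.384). Its close relative Rab11b read 4.60, 4.82 and 4.43 at 10 pg and -0.05, 0.08 and 3.43 at 1 pg, a difference of -3.46. Replicate 3 of 1 pg stood nearer to the 10 pg arrays than to its own group, and the fit without that array was the only one of the 6 to keep the call (limma adjusted p = 0.000471). Gna13, a G protein alpha subunit that relays signals from membrane receptors, had the same high array: it read -1.03, -2.59 and 3.51 at 1 pg and 5.41, 5.72 and 6.62 at 10 pg. Bulk stood at -1.11 for Gna13, near the other two arrays of 1 pg, and of the 6 fits the one without replicate 3 of 1 pg kept the difference of -5.95 (limma adjusted p = 0.00167). Gna13 had 6 other probe sets, of which 1 fell by 2.80, and the remaining ones did not pass the test, with 4 of them higher at 1 pg (up to 0.95). By the median over all its probe sets Gna13 differed by -0.37 (limma adjusted p = 0.814). Chgb, chromogranin B of the dense-core granules, read 5.12, 4.08 and 4.20 at 10 pg and 0.98, 1.95 and 1.12 at 1 pg, a difference of -3.12 that was kept in 2 of the 6 fits. Rgs5, a regulator of G protein signalling that marks pericytes, read 4.85, 4.42 and 4.90 at 10 pg and 1.76, 3.06 and 3.01 at 1 pg, a difference of -2.11 that 2 of the 6 fits kept.

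Elavl3, a neuronal RNA-binding protein of the Hu family, fell as well. It read 5.01, 4.87 and 4.65 at 10 pg and 1.37, 0.71 and 1.39 at 1 pg. The difference was -3.69 ± 0.543 (SE; limma adjusted p = 0.00553), and each of the 6 fits without 1 array kept it. Bulk stood at 1.28, among the arrays of 1 pg. Rbfox3, the splicing factor known as NeuN, read 5.09, 5.14 and 5.12 at 10 pg and 2.83, 3.26 and 3.09 at 1 pg, with bulk at 1.46. Both groups were tight and lay above bulk, the difference was -2.06 ± 0.378 (SE; limma adjusted p = 0.0166), and 3 of the 6 fits kept it. Ddx3x, an X-linked DEAD-box RNA helicase, read 5.50, 4.86 and 3.22 at 10 pg and -0.49, 0.24 and 0.55 at 1 pg, a difference of -4.43. Egr3, an immediate early transcription factor, read 5.29, 3.08 and 2.25 at 10 pg and -0.07, -0.43 and -1.36 at 1 pg, a difference of -4.16, with bulk at 4.30. Zkscan16, a zinc finger protein, read 5.27, 5.32 and 5.00 at 10 pg and -0.34, -0.94 and 3.42 at 1 pg, a difference of -4.49. Each of these 3 calls was kept in 1 of the 6 fits, those of Ddx3x and Egr3 without replicate 3 of 10 pg and that of Zkscan16 without replicate 3 of 1 pg. Dlx2, a homeobox factor of interneuron precursors, read 3.95, 1.73 and 4.00 at 10 pg and -1.66, -0.23 and 0.00 at 1 pg, a difference of -3.86 that 4 of the 6 fits kept.

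B2m, the light chain of MHC class I molecules, gave the smallest adjusted p of the named genes. It read 5.03, 5.65 and 4.75 at 10 pg and 0.13, -0.50 and 0.38 at 1 pg. The fall was -5.14 ± 0.447 (SE; limma adjusted p = 4.21e-05), bulk stood at 3.55 between the groups, and each of the 6 fits kept it. Its other probe set differed by -0.39 and did not pass the test (limma adjusted p = 0.957). Acot2, a mitochondrial acyl-CoA thioesterase, read 5.02, 6.14 and 5.20 at 10 pg and 0.82, 1.10 and 0.70 at 1 pg, a difference of -4.58, with bulk at 3.79. Chst1, a sulfotransferase of keratan sulfate, read 5.33, 5.33 and 5.76 at 10 pg and 0.61, 1.08 and 2.23 at 1 pg, a difference of -4.16, with bulk at 1.87. Limd2, a LIM-domain protein, read 6.18, 5.29 and 4.96 at 10 pg and 1.28, -0.34 and 0.60 at 1 pg, a difference of -4.96, with bulk at 1.74. The calls of Acot2, Chst1 and Limd2 were kept in each of the 6 fits. The other probe sets of Acot2 (-0.12) and Limd2 (0.13, -0.14 and -0.93) did not pass the test. Rps29, a protein of the small ribosomal subunit, read 5.26, 4.50 and 2.62 at 10 pg and 0.98, 0.03 and 0.84 at 1 pg. Its difference of -3.51 was kept in the fit without replicate 3 of 10 pg and in no other, and its 2 other changed probe sets differed by -4.69 and -5.28.

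The largest fall belonged to a RIKEN transcript with no well-known role. 4930526I15Rik read 5.63, 6.11 and 6.95 at 10 pg and 0.13, -1.48 and -1.96 at 1 pg, a fall of -7.34 ± 1.15 (SE; limma adjusted p = 0.00697). Bulk stood at -0.12, so the 10 pg arrays were the ones away from it. The predicted gene Gm21953 read 5.46, 6.44 and 6.04 at 10 pg and 2.08, 0.60 and 1.89 at 1 pg, a fall of -4.46 ± 0.499 (SE; limma adjusted p = 0.000521), with bulk at 0.87. Both calls were kept without each array. The other 90 genes that fell had differences from -4.16 to -1.94.

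The 14 genes that rose are given in the same way. Pglyrp2, an amidase that cuts peptidoglycan and is known from liver, read 0.03, -0.46 and -2.10 at 10 pg and 5.67, 1.80 and 4.99 at 1 pg. It rose by 5.00 ± 0.87 (SE; limma adjusted p = 0.0118), replicate 2 of 1 pg was the lowest of its group, and bulk stood at -1.77 beside the arrays of 10 pg. Nlrp3, the sensor of an inflammasome, read 0.99, 1.32 and 2.71 at 10 pg and 4.82, 3.77 and 3.40 at 1 pg, a difference of 2.32. Nfatc1, a transcription factor that calcineurin activates, read 0.76, 1.18 and 1.86 at 10 pg and 5.87, 3.53 and 3.62 at 1 pg, a difference of 3.07. Nek4, a NIMA-related kinase, read 1.59, 2.42 and 1.43 at 10 pg and 4.84, 6.90 and 4.97 at 1 pg. Its rise of 3.76 ± 0.525 (SE; limma adjusted p = 0.00419) was kept in each of the 6 fits, that of Pglyrp2 in 5, that of Nfatc1 in 3 and that of Nlrp3 in 2.

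The next genes that rose have other roles. Dhx29, a helicase of translation initiation, read 2.32, 0.88 and 1.21 at 10 pg and 4.14, 3.76 and 5.32 at 1 pg, a rise of 2.94 ± 0.49 (SE; limma adjusted p = 0.00991). Bulk stood at 4.76, so here the 10 pg arrays were the ones below it. Ostc, a subunit of the oligosaccharyltransferase, read 0.07, -0.86 and -0.43 at 10 pg and 2.24, 3.28 and 1.73 at 1 pg, a difference of 2.82, with bulk at 1.96 among the arrays of 1 pg. Both calls were kept in each of the 6 fits. Ufl1, a ligase of the ubiquitin-like modifier UFM1, read -0.65, -0.25 and -0.60 at 10 pg and 2.22, 2.46 and 2.40 at 1 pg, a difference of 2.86 that 0 of the 6 fits kept. Cog8, a subunit of a Golgi tethering complex, read 1.67, 1.95 and 2.80 at 10 pg and 3.82, 4.25 and 4.25 at 1 pg, a difference of 1.97. Cxxc1, a CpG-binding subunit of a histone methyltransferase, rose by 2.30, Cypt4, a gene known from testis, by 2.61 and Ugt2a3, a glucuronosyltransferase of gut and liver, by 2.25. The remaining rises were those of Fam110b (2.66) and of the RIKEN transcripts 3010003L21Rik (3.66) and C330022C24Rik (2.83). The calls of Cog8, Cxxc1, Cypt4, Ugt2a3, Fam110b and of these transcripts were kept in 1 to 3 of the 6 fits.

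**Figure D3:**
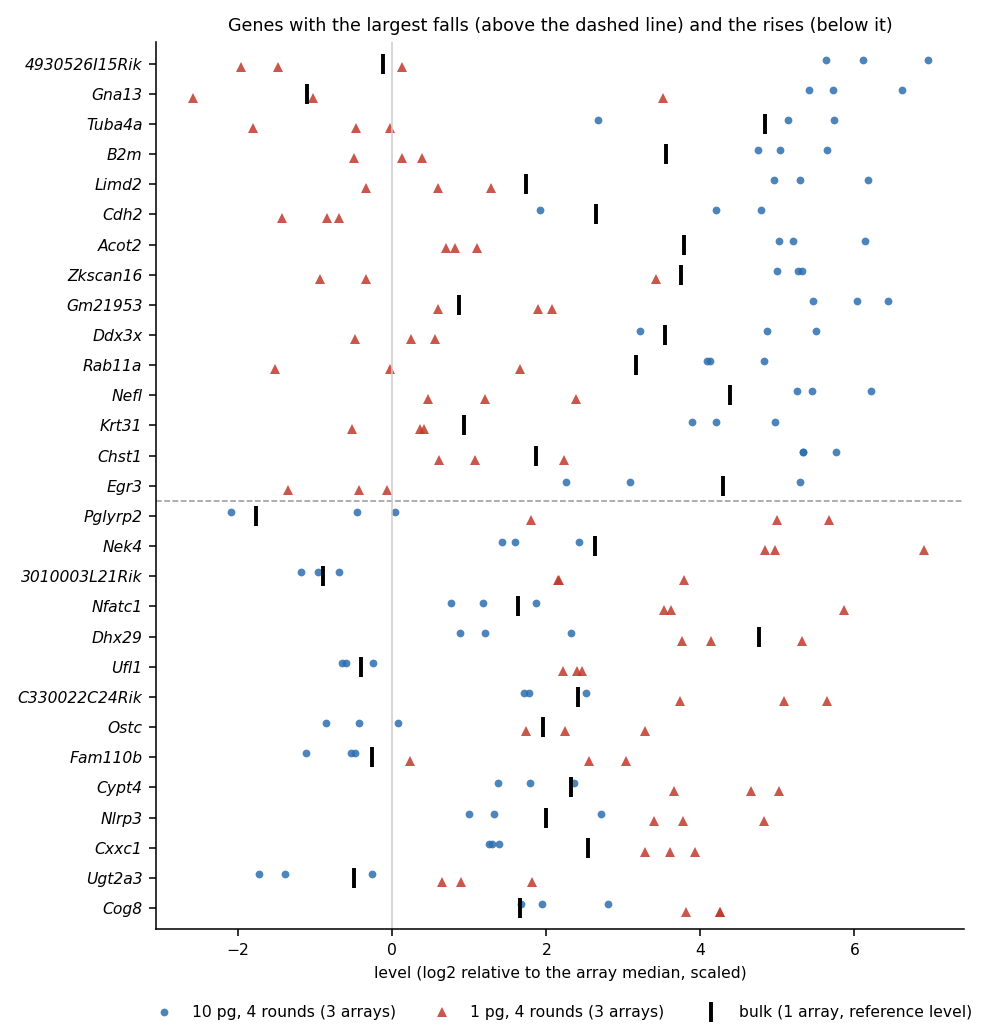
Level of each named gene on the 3 arrays of 10 pg (circles), the 3 arrays of 1 pg (triangles) and the bulk array (bar), in log2 relative to the array median. The 15 largest falls stand above the dashed line and the 14 rises below it, the 2 groups do not overlap for any of these genes, and bulk lies beside the arrays of 1 pg for some (Krt31, 4930526I15Rik) and beside those of 10 pg for others (Pglyrp2, Ufl1).

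Of these 29 genes, the fits without replicate 1, 2 or 3 of 1 pg kept the calls of 14, 18 and 20, and those without replicate 1, 2 or 3 of 10 pg kept 12, 14 and 23. Their signs could not change in these fits, since leaving out 1 array cannot reverse a difference between groups that do not overlap. Most calls rest on a single probe set. Of the 119 changed genes, 85 had 186 other probe sets, and 4 of these changed too, in the same direction, for the 3 genes Gna13, Rps29 and Scoc. None changed in the opposite direction, and 109 of the 186 (58.6%) had the same sign. The other probe sets of Tuba4a (-2.91 and 0.28), Elavl3 (-1.93 and 0.09) and Rab11b (0.46 and 0.80) did not pass the test. Nor did those of Krt4 (1.39) and Egr3 (0.45). Among the genes that rose, the other probe sets of Nek4 (-0.64), Dhx29 (-0.59) and Cxxc1 (-0.31) had the opposite sign. Those of Cog8 (0.87 and 0.42), Fam110b (0.51) and Ostc (0.44) had the same sign, and those of Nfatc1 ran from -0.21 to 1.37. None of these passed the test. With each gene given by the median over its probe sets, 14 of the 29 genes above kept their call and 15 lost it, with 0 reversed. The representing probe set had a suffix that marks probes shared with other transcripts (s or x) for 4 and 7 of the 119 genes, 4930526I15Rik, Limd2, Rps29, Rgs5 and Cog8 among them, so their values may hold signal of related sequences.

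The gene lists named below were read against the share of all genes that fell (0.577%) and against the median difference of all genes (0.07). At an unadjusted p under 0.05 in limma, 5.52% of all genes were lower and 4.35% higher. A list count near these shares is no result about its list. The 39 lists hold 1108 measured genes, of which 13 fell and 0 rose. Among markers of the cell types of cortex, 3 of 22 pan-neuronal markers fell (Nefl, Elavl3 and Rbfox3), with a median difference of -0.48 over the list. In these markers 7 were lower at an unadjusted p under 0.05 and 1 was higher. The excitatory neuron markers had a median difference of -0.82 over 16 genes, with 0 changed by limma and 4 lower at an unadjusted p under 0.05. Among the 17 inhibitory neuron markers 1 fell, Dlx2, and the median was -0.08. Glial markers gave 0 calls: the medians were 0.06 for 16 astrocyte, 0.20 for 17 oligodendrocyte and -0.12 for 15 microglia markers, with 1, 0 and 1 members lower and 1, 0 and 0 higher at an unadjusted p under 0.05. Of the 16 vascular markers 1 fell, Rgs5, with a median of -0.10. The 8 blood markers and the 11 markers of choroid plexus and ependyma had 0 changed members, 0 under the unadjusted threshold, and medians of 0.03 and 0.04.

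Of the 18 markers highest in bulk, 2 from each of 9 marker lists, 1 changed, Rgs5, and the other 17 differed by -1.35 to 1.14. Map2, the microtubule-associated protein of dendrites, stood at 6.71 ± 0.192 at 10 pg and 6.74 ± 0.12 at 1 pg (SD, n = 3 each), Nrgn, the calmodulin-binding neurogranin, at 6.77 ± 0.212 and 6.79 ± 0.309, and Neurod2, a transcription factor of excitatory neurons, at 6.97 ± 0.148 and 6.93 ± 0.312. Calb2, which encodes calretinin, stood at 7.50 ± 0.167 and 7.15 ± 0.482. Cx3cr1, the fractalkine receptor of microglia, stood at 6.19 ± 0.15 and 5.93 ± 0.533. Eno2, the neuronal enolase, read 6.42 ± 0.249 at 10 pg and 5.19 ± 1.1 at 1 pg, Glul, the glutamine synthetase of astrocytes, 5.15 ± 0.81 and 4.53 ± 1.34, and Kdr, a VEGF receptor of endothelium, 4.80 ± 1.34 and 3.45 ± 0.263. None of these 8 passed the test, which does not show that their levels were equal. Gria2, an AMPA receptor subunit, read lower at the smaller input but with a wide spread, 6.04 ± 0.568 at 10 pg and 3.99 ± 1.56 at 1 pg (limma adjusted p = 0.291), and Grin2d, an NMDA receptor subunit, stood at 5.33 ± 0.468 and 5.19 ± 0.264. Camk2a, a calmodulin kinase of dendrites, stood at 2.78 ± 1.11 and 1.99 ± 0.654 (limma adjusted p = 0.799).

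Neuronal gene families gave few calls. Of 21 immediate early genes 1 fell, Egr3, while Nr4a2 stood at 6.20 ± 0.116 and 6.11 ± 0.337 and Ier5 at 5.11 ± 0.188 and 4.62 ± 0.481. Of 18 neuropeptide and secretory granule genes 1 fell, Chgb, and 3 were lower at an unadjusted p under 0.05. Of 59 RAB small GTPases 2 fell, Rab11a and Rab11b, with a list median of -0.08. Of 14 tubulins 1 fell, Tuba4a, with a median of -0.16, and Tuba1a stood at 6.29 ± 1.19 and 5.25 ± 0.35. The lists with 0 calls by limma were 18 mRNAs localized in dendrites (median -0.39, 4 lower and 0 higher at an unadjusted p under 0.05), 24 synaptic vesicle and fusion genes (-0.35, 3 lower), 21 postsynaptic density genes (-0.04, 3 lower), 22 glutamate receptors (-0.06, 4 lower and 1 higher), 16 GABA receptors (-0.01, 1 lower), 12 genes of calmodulin and its kinases (-0.74, 1 lower and 1 higher), 80 potassium channels (0.09, 4 lower and 7 higher), 37 kinesin motors (-0.21, 1 lower and 2 higher) and 24 microtubule and growth cone proteins (-0.59, 4 lower and 1 higher).

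The 14-3-3 proteins, adaptors that bind phosphorylated partners and are abundant in neurons, had the lowest median of the 39 lists, -1.39 over 7 genes. None passed the test, and 4 of 7 were lower at an unadjusted p under 0.05. The representing probe sets of Ywhab, Ywhae, Ywhag and Ywhaq carry the suffix x, so their values may hold signal of related sequences. Ywhaq differed by -2.84 ± 0.777 (SE; limma adjusted p = 0.135), Ywhab by -1.67 ± 0.596 (0.307) and Ywhaz by -0.32 ± 0.411 (0.911). By the median of each gene's probe sets the list stood at -0.85, and the excitatory neuron markers at -0.93. The spread was uneven within the family, since Ywhab had an SD of 0.13 at 1 pg and Ywhah one of 1.68.

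Housekeeping lists gave 1 call, and the keratins 2. Of 50 cytosolic ribosomal proteins 1 fell, Rps29, with a list median of -0.50 and 8 lower and 1 higher at an unadjusted p under 0.05, while Rps9 stood at 6.41 ± 0.173 at 10 pg and 6.39 ± 0.554 at 1 pg and Rps10 at 3.21 ± 0.362 and 2.67 ± 1.28. The 92 genes of the respiratory chain and ATP synthase had 0 calls by limma, a median of -0.22, and 12 lower and 4 higher at the unadjusted threshold. For 29 splicing factors these values were 0, -0.24, 7 and 0, and for 17 glycolytic genes 0, -0.65, 2 and 0. Calls were also 0 for 76 mitochondrial ribosomal proteins (median 0.08, 4 lower and 1 higher at the unadjusted threshold), 39 proteasome subunits (-0.14, 0 and 1), 31 ubiquitin-conjugating enzymes (-0.37, 2 and 0), 28 chaperones (0.05, 1 and 2), 58 translation factors (0.03, 5 and 2) and 26 genes of the clathrin coat and endocytosis (-0.15, 1 and 0). Of 48 keratins 2 fell, Krt31 and Krt4, and the median was -0.02.

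Genes of other tissues served as a background. Their lists stood low in bulk (median 0.08 for Hox genes and 0.09 for olfactory receptors), but some members read high there. Hoxc6 stood at 5.76 and Olfr15 at 5.83 in bulk, and the keratin Krt5 at 6.34. The 143 Hox genes, olfactory and vomeronasal receptors, testis-restricted genes and genes of liver, muscle and pancreas had 0 changed members by limma. At an unadjusted p under 0.05 in limma, 6 were higher and 2 lower, and the median difference was 0.15. Of all genes 0.654% changed, so 0 of 143 is near that share and is no result about these lists. The 48 keratins were not counted among the 143, and 2 of them fell. Of the 13 changed genes of all the lists, the fits without replicate 1, 2 or 3 of 1 pg called 5, 9 and 9, those without replicate 1, 2 or 3 of 10 pg called 3, 6 and 11, and the fit of the 6 arrays alone called 2.

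**Figure D4:**
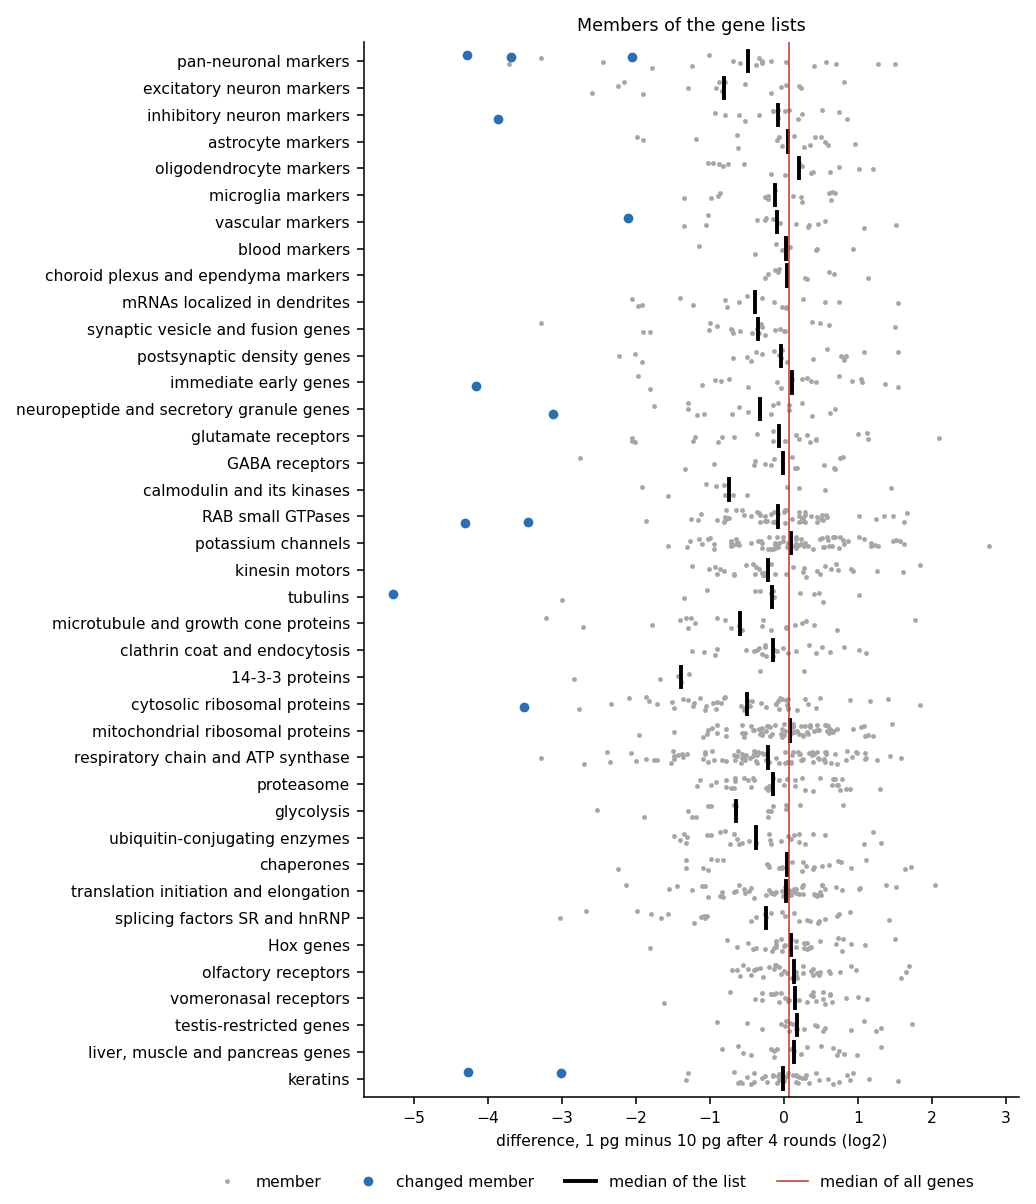
Difference between 1 pg and 10 pg after 4 rounds (log2, x axis) for each measured member of the 39 gene lists (grey points), with the changed members in blue, the median of each list as a black bar and the median of all genes (0.07) as a red line. The changed members all lie below -2, and the 14-3-3 proteins have the list median furthest from that of all genes.

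The control probe sets for the ends of transcripts did not move in one way. For Actb, the cytoplasmic beta-actin, the level of the 3′ probe set was 3.52 ± 0.532 at 10 pg and 1.93 ± 0.492 at 1 pg (SD, n = 3 each), while the middle probe set stood at 0.32 ± 0.28 and 1.64 ± 0.316. The 3′ level minus the 5′ level of Actb was 1.13 ± 0.551 at 10 pg, 0.19 ± 0.327 at 1 pg and 1.09 in bulk. For Gapdh, a glycolytic enzyme, the 3′ level was 5.94 ± 0.116 and 5.86 ± 0.258, and 3′ minus 5′ was 4.73 ± 0.207 at 10 pg and 4.03 ± 0.373 at 1 pg, both above the 2.05 of bulk. For Tfrc, the transferrin receptor, 3′ minus 5′ was 4.74 ± 0.183 at 10 pg, 6.08 ± 0.154 at 1 pg and 5.37 in bulk. The groups did not overlap in the 3′ minus 5′ difference of any of the 3 transcripts, while the levels of 17.3% of all genes did not overlap. The difference was lower at 1 pg for Actb and Gapdh and higher for Tfrc. For Actb the gap was narrow, with 0.61 on the lowest array of 10 pg and 0.57 on the highest of 1 pg. The hybridization controls, which are added after amplification, averaged 6.33 ± 0.296 at 10 pg and 6.43 ± 0.537 at 1 pg. Both control probe sets named for the B2 repeat read lower at 1 pg, at 7.64 ± 0.216 against 5.99 ± 0.857 for the first and 8.66 ± 0.098 against 7.85 ± 0.29 for the other, with bulk at 5.67 and 7.06.

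The arrays of 2 rounds are not among the arrays compared here, but they are not an independent check. Those of 1 pg entered the spread that limma estimated. All of them entered the choice of the probe set that stood for each gene. They give a second look at the same inputs, although 10 pg has 1 array there, with 872 distinct values, and no test was made. Of the 105 genes that fell after 4 rounds, 86 (81.9%) were lower at 1 pg than at 10 pg after 2 rounds, against 47.7% of all genes and 54.2% of the genes in the highest decile of bulk. Their median difference after 2 rounds was -1.77, and that of all genes 0.09. The 10 pg array lay above all 3 arrays of 1 pg for 79 of these genes (75.2%), against 35.2% of all genes. Of the 14 genes that rose, 9 (64.3%) were higher at 1 pg after 2 rounds, against 52.3% of all genes, with a median difference of 1.11. For these 9 the 10 pg array lay below all 3 arrays of 1 pg, against 39.8% of all genes.

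Single genes show both outcomes. B2m stood at 5.00 at 10 pg and 1.60 ± 0.558 at 1 pg after 2 rounds (SD, n = 3), and Tuba4a at 5.87 and 1.76 ± 0.341, both lower at 1 pg, as after 4 rounds. Chgb stood at 5.79 and 0.62 ± 1.02. Rbfox3, in contrast, stood at 4.31 and 4.25 ± 0.194, and Rgs5 was higher at 1 pg, at 0.92 and 3.74 ± 0.317. After 4 rounds from 0.1 pg, the genes that fell between 10 and 1 pg had a median level of 0.44, beside 0.54 at 1 pg and 3.96 at 10 pg, and the genes that rose had 1.42, beside 4.05 at 1 pg and 1.29 at 10 pg.

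**Figure D5:**
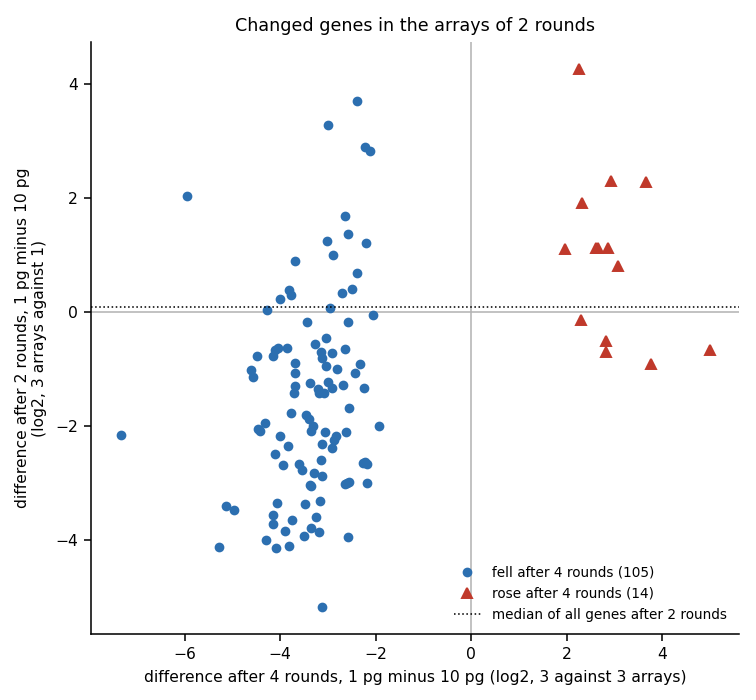
Difference between 1 pg and 10 pg (log2) after 4 rounds (x axis, 3 against 3 arrays) and after 2 rounds (y axis, 3 arrays against 1) for the 119 changed genes. Of the 105 genes that fell after 4 rounds (circles) 86 lie below 0 on the y axis, and of the 14 that rose (triangles) 9 lie above it, while the median of all genes after 2 rounds (dotted line) is 0.09.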

How the data were processed

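Amplified aRNA or unamplified mRNA of mouse cortex was hybridized to Affymetrix mouse arrays. The authors summarized probes with RMA 2.0 and deposited log2 values, which lack the median centring and range scaling that their methods name. Here each array was centred on its median, divided by its range between the 10th and 90th percentiles and multiplied by the mean range of 4.63. The table has 45101 probe sets, of which 64 controls were left out and 34945 carry 1 symbol, for 18193 genes. 0 columns were without a sample. Rounds were taken as labelled, and whether the final labelling amplification is counted among them is not given in the sources used here.

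The contrast was fitted to each probe set in limma 3.58.1 under R 4.3.3 (7 group means over 17 arrays, 16.4 total degrees of freedom), and correlations with bulk by an exact permutation test in scipy 1.17.1. Groups with a single array add nothing to the estimated spread. In simulated data for this comparison of 45037 probe sets, the fit found 16 of 100 changes of 2 log2 units and 91 of 100 changes of 4 units, with 4 false calls. The simulated noise was normal and independent, with the same SD on all arrays of a probe set. The measured median SD was 0.528 at 1 pg and 0.404 at 10 pg, and single arrays lay apart. The simulation therefore does not give the recovery or false calls of the measured arrays. How many of the calls on the measured arrays are false was not tested. The number of arrays limits the precision. Genes named are those with non-overlapping arrays and the 15 largest falls and rises (14 rises were called), and of each list the 2 largest changed members. Of the 2 members of each list highest in bulk only some are named, beside control probe sets of Actb, Gapdh and Tfrc. Repeat and hybridization controls, Rbfox3, Scoc, Ywhaq, Ywhab and Ywhah were named after their values were seen. The comparison and the lists were chosen with earlier results of these data known. Alternatives were the deposited values, median centring alone, quantile normalization, a filter on dim probe sets, the 6 arrays alone, a trend, array weights, a block, the methods' t-test, a stricter threshold, the median over all probe sets of each gene, Spearman's rho, and each array left out.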

Additional observations from a re-analysis of the deposited data

How the results depend on the processing

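With the settings of the report, 296 probe sets were called (31 higher and 265 lower at 1 pg). The deposited values gave 56 higher, median centring alone 50 and the filter on dim probe sets 48, and the counts of lower and of all probe sets stayed within 1.5 times. The 6 arrays alone gave 43 probe sets (1 higher, 42 lower) and 17 genes. Array weights gave 1745 probe sets (716 higher, 1029 lower) and 724 genes. These weights ranked replicate 1 of 1 pg at 2.52 and replicate 3 at 0.578. The methods' t-test gave 0, and a false discovery rate of 0.1% gave 10 probe sets (0 higher, 10 lower) and 2 genes. The median over all probe sets of each gene gave 71 genes, of which 42 were among the 119. Without 1 array the counts ran from 86 to 353 probe sets, from 5 to 147 higher and from 81 to 317 lower, and from 33 to 153 genes. The 147 higher probe sets came without replicate 2 of 1 pg, and the lowest counts without replicate 1 of 10 pg. Replicate numbers are shared between groups, but arrays of the same number did not deviate together (0.015, -0.081 and -0.199), so they were not taken as pairs. With the replicate number as a block, 277 probe sets (25 higher, 252 lower) and 111 genes were called. None of the 29 named genes with the largest changes reversed in any setting. For the fits without 1 array this was fixed in advance, since the arrays of these genes do not overlap. The lower correlation with bulk at 1 pg (-0.0522) kept its direction in each setting. It was -0.0697 by Spearman's rho and -0.0546 over probe sets above the median of bulk. Without 1 array it ran from -0.0598 to -0.0453, where its direction was also fixed by the lack of overlap.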

Other observations

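Values follow for some of the 90 further genes that fell. They were picked after their values were seen, so no count or theme is drawn from them, and the adjusted p-values are those of limma over all probe sets. Tardbp, which encodes TDP-43, read 5.09, 4.55 and 4.47 at 10 pg and 1.32, 0.79 and 1.57 at 1 pg, a fall of -3.48 (limma adjusted p = 0.00606), with bulk at 5.64. Mettl14, a subunit of the m6A methyltransferase, read 4.66, 4.54 and 5.30 at 10 pg and 1.66, 2.21 and 1.26 at 1 pg, a fall of -3.13 (limma adjusted p = 0.00606), with bulk at 2.32. Nudt21, a factor of cleavage and polyadenylation, read 2.67, 3.93 and 3.45 at 10 pg and -0.34, -1.53 and -0.11 at 1 pg, with bulk at 1.10, and the spliceosomal helicase Dhx15 fell by 3.60, with bulk at 2.47. All 4 calls were kept without each array. The other probe sets of Tardbp (-1.39 to 0.59), Nudt21 (-0.31 to 1.52) and Dhx15 (0.34) did not pass the test. Qk, the quaking RNA-binding protein of glia, read 4.01, 4.74 and 4.08 at 10 pg and -1.31, 2.57 and -0.65 at 1 pg, and 1 of the 6 fits without 1 array kept its call.

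Nsg1, an endosomal protein of neurons, read 4.61, 4.64 and 5.48 at 10 pg and 1.69, 0.93 and 2.65 at 1 pg, with bulk at 4.48, and its fall of -3.15 was kept without each array. Ank3, the ankyrin of the axon initial segment, fell by 3.17, Lamp5, a membrane protein of a class of interneurons, by 3.90, Pcp4, a regulator of calmodulin, by 3.19, and Cacng2, the AMPA receptor auxiliary subunit stargazin, by 2.91. The fits without 1 array kept 5, 4, 3 and 1 of 6 of these calls. The other probe sets of Nsg1 (-0.16), Ank3 (-1.04 to 0.61) and Cacng2 (0.29 and 0.37) did not pass the test. For Lamp5 the 3 arrays of 10 pg read 5.19, 2.77 and 5.11, so replicate 2 lay well below the others. After 2 rounds Ank3 stood at 5.59 on the 10 pg array and 2.28 ± 0.272 at 1 pg (SD, n = 3), and Nudt21 at -0.62 and -0.38 ± 0.771.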
